A study of Homo sapiens with 6 samples.

Results

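The BCL2 family decides whether the mitochondrial outer membrane stays intact when a cell is under stress, and 10 of its genes were followed here in MDA-MB-453 cells after DUSP6 knockdown. They were taken by gene symbol from the 22807 genes of the expression table: the guardians BCL2, BCL2L1 (the gene of BCL-XL) and MCL1, the BH3-only genes BCL2L11 (BIM), BMF, BIK, BBC3 (PUMA) and PMAIP1 (NOXA), and the effectors BAX and BAK1. MDA-MB-453 is an established HER2+ breast cancer line, and DUSP6 is a phosphatase that removes phosphate from the ERK kinases. Poly(A) RNA of 3 libraries from cells given scrambled siRNA (genotype label WT) was compared with that of 3 libraries from cells given DUSP6 siRNA (genotype label DUSP6 KD), all 6 after transient transfection and with no drug named in the labels. The study's methods describe 3 different DUSP6 siRNAs and 3 different scrambled siRNAs. Which siRNA went into which library, the time of harvest and whether the libraries came from separate cultures are not given in the sources used here, so p-values measure the spread between these libraries, in which siRNA sequence and culture cannot be told apart.

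As background, guardians hold the effectors inactive. BH3-only proteins are the stress sensors: they bind guardians in a groove or push the effectors directly, and free BAX and BAK1 then open the membrane and let cytochrome c reach the caspases. The members differ in partners, NOXA binding mainly MCL1, while BIM and PUMA bind all the guardians, and in HER2-driven cells BIM and BCL-XL are among the members best known for setting the response to HER2 inhibitors.

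Each value below is a read count scaled for depth, close to CPM, and 1 read was worth 0.0121 to 0.0202 units at library depths of 45546981 to 85729785 reads. Genes were tested with limma on log2(value + 1), and adjusted p-values run over the 12862 genes whose mean value reached 1. The targeted gene DUSP6 had values of 209, 110 and 114 in the scrambled libraries and 39.4, 24.5 and 35.2 with DUSP6 siRNA, so all 6 libraries followed their labels. The 8 luminal and HER2 markers were all expressed (ERBB2 at 882 or more in the scrambled libraries), and 7 of them were lower and 1 higher with DUSP6 siRNA. Among all genes tested, 24.7% were called lower and 19.7% higher. Of the 8 markers of other cells, PTPRC, CD14, PECAM1, KRT5, KRT14 and VIM were all below 1 in every library, CD3E had no row, and COL1A1 was at 80.7 to 105 in scrambled and 162 to 192 in DUSP6 siRNA libraries. Whether these shifts had a part in the results on the BCL2 family was not tested. In such bulk RNA, fewer cells with a transcript and less transcript per cell cannot be told apart.

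All 10 members passed the filter on low values. With DUSP6 siRNA 3 members were higher (PMAIP1, BBC3 and BCL2L11), 2 were lower (BCL2L1 and BMF) and 5 were not called (BCL2, MCL1, BIK, BAX and BAK1). Of all genes tested, 19.7% were called higher and 24.7% lower, so the members called were 3 and 2 of 10 against those shares. By role, 3 of 5 BH3-only genes were higher and 1 was lower, 1 of 3 guardians was lower and none higher, and neither of the 2 effectors was called. Before adjustment, MCL1 (higher) and BAK1 (lower) had a limma p-value under 0.05, and edgeR on the recovered reads called BAK1 as well as the 5. The median log2 fold change was 0.62 for BH3-only genes, -0.01 for guardians and -0.04 for effectors, beside -0.01 for all genes tested. These medians by role leave out tested family genes outside the 10 members. Of those, the BH3-only genes BAD and BID had -0.63 and -0.10, the guardian BCL2L2 0.32 and the effector relative BOK -0.28. The contrast between roles thus holds for the chosen members and not for the family. In 5 members all DUSP6 siRNA libraries lay above all scrambled ones, in 3 they lay below, and in 2 the groups overlapped. The same held for 26.7% of all genes in the higher and 31.1% in the lower direction.

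**Figure D1:**
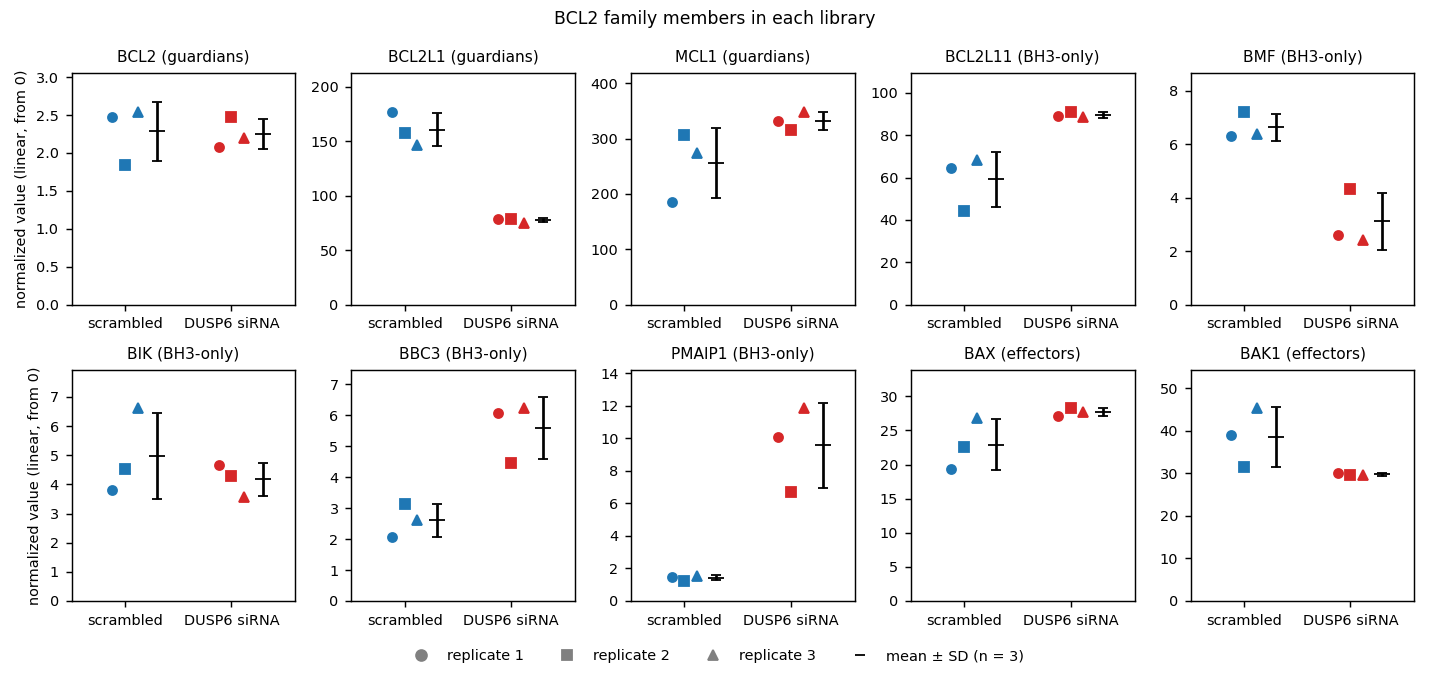
Normalized value (linear axis from 0, close to CPM) of each of the 10 members in the 3 scrambled (blue) and 3 DUSP6 siRNA (red) libraries, with a marker for each replicate number and the mean ± SD (n = 3) in black. PMAIP1, BBC3 and BCL2L11 sit higher with DUSP6 siRNA and BCL2L1 and BMF lower with no overlap, while BCL2 and BIK overlap.

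The 250 bases before the transcription start are shown for the guardian that fell, the BH3-only gene with the largest rise, and the most abundant BH3-only gene per length. They are RefSeq sequences on GRCh38.p14, printed 5′ to 3′ on the strand of the gene, and capitals mark the motif matches described after them. PMAIP1 lies at chr18:59899746-59899995 on the plus strand, BCL2L1 at chr20:31723964-31724213 on the minus strand and BCL2L11 at chr2:111120664-111120913 on the plus strand.
PMAIP1: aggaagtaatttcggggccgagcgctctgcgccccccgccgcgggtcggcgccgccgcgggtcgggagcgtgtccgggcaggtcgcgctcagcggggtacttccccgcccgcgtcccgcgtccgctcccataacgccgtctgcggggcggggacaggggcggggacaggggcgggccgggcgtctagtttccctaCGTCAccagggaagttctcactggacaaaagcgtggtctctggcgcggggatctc
BCL2L1: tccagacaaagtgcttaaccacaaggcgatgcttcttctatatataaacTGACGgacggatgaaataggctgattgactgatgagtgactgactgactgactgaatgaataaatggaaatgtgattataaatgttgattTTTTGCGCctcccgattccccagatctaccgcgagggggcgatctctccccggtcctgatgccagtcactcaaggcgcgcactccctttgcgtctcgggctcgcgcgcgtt
BCL2L11: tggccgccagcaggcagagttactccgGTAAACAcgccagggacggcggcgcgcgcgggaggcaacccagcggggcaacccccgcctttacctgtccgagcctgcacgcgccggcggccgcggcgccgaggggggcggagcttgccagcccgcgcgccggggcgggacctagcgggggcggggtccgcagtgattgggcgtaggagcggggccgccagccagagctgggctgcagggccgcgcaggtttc

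RefSeq promoter windows, from 250 bases before to 50 after the start, matched 8 of the 10 members (MCL1 and BIK had no entry), and 6 short motifs were searched on both strands. The short cyclic AMP motif TGACG, bound by the ATF and CREB factors, occurred in 5 of the 8, namely BCL2, BCL2L1, BMF, PMAIP1 and BAX, and in 25% of 27305 promoters. It is written CGTCA in PMAIP1, 55 bases before the start, and TGACG in BCL2L1, 201 bases before it. BCL2L1 also matched TTTNGCGC, a loose form of the E2F motif in which N is any base. The match, TTTTGCGC, begins 111 bases before the start, and 1.83% of promoters hold the loose form. BCL2L11 held the forkhead motif GTAAACA 223 bases before its start, as 3.41% of promoters do. The paired interferon regulatory factor motif GAAANNGAA, found in 8.29% of promoters, occurred only in BBC3, as 3 overlapping matches that begin 25, 31 and 37 bases after the start in use by the table. That start lies inside the annotated BBC3 gene and not at its outer end. The full cyclic AMP site TGACGTCA (1.98% of promoters; it contains the short motif) and the CHOP-ATF4 composite TGATGNAA (3.67%) occurred in none of the 8. A match of these letters is a description of the window and not a binding site.

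Among the guardians, BCL2L1 fell and the other 2 were not called. BCL2L1, on chromosome 20, encodes BCL-XL, the guardian that holds BAX, BAK1, BIM and PUMA. Its values were 177, 158 and 147 in the scrambled libraries and 78.8, 79.0 and 75.1 with DUSP6 siRNA. Every DUSP6 siRNA library had close to the same level, far under that in the lowest scrambled library. The scrambled mean was 161 ± 15.2 and the DUSP6 siRNA mean 77.7 ± 2.17 (SD, n = 3). The log2 fold change was -1.03 ± 0.09 (SE) with a limma adjusted p of 6.46e-05, and the call was kept in every setting tried.

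MCL1, on chromosome 1, encodes the short-lived guardian that NOXA targets. Its values were 185, 307 and 274 in the scrambled libraries and 332, 316 and 348 with DUSP6 siRNA. All DUSP6 siRNA libraries were above all scrambled ones, but the second scrambled library came close to the lowest of them and the first was far below. The log2 fold change was 0.41 ± 0.17 (SE; 95% interval 0.03 to 0.79) and did not pass (limma adjusted p = 0.0754). Without the second scrambled library it was 0.56 and passed (limma adjusted p = 0.0259), and after quantile normalization it was 0.65 and passed (limma adjusted p = 0.0136). Without the first scrambled library, the lowest of all, it shrank to 0.19 (limma adjusted p = 0.144). Exons of the antisense gene ADAMTSL4-AS1 cover 5.27% of the MCL1 exons.

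BCL2, the founding guardian, was scarce in this line, at 2.47, 1.84 and 2.54 in the scrambled libraries and 2.08, 2.47 and 2.19 with DUSP6 siRNA. The groups overlapped, and the log2 fold change was -0.01 (95% interval -0.29 to 0.27; limma adjusted p = 0.955). The guardians thus did not share 1 direction: BCL2L1 passed the test downward, and the estimates for MCL1 and BCL2 were 0.41 and -0.01.

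Among the BH3-only genes, PMAIP1 had the largest change of the 10 members. PMAIP1, on chromosome 18, encodes NOXA, which binds MCL1 and leads to its degradation. Its values were 1.46, 1.25 and 1.54 in the scrambled libraries and 10.1, 6.71 and 11.9 with DUSP6 siRNA. The scrambled values lay close together near the bottom of the measured range, resting on at least 65 reads, and the lowest DUSP6 siRNA library was still far above them. The mean was 6.75-fold higher, 9.56 ± 2.61 against 1.42 ± 0.153 (SD, n = 3). On the log2(value + 1) scale, which shrinks changes of low genes, the log2 fold change was 2.10 ± 0.18 (SE; limma adjusted p = 4.70e-05), and edgeR on the recovered reads gave 2.74.

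BBC3, on chromosome 19, encodes PUMA, which can bind every guardian. Its values were 2.05, 3.12 and 2.63 in the scrambled libraries and 6.09, 4.45 and 6.23 with DUSP6 siRNA. As for PMAIP1, the second DUSP6 siRNA library had the lowest value of its group and still lay above all scrambled ones. The log2 fold change was 0.87 ± 0.16 (SE; limma adjusted p = 0.00227) and the ratio of means 2.15.

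BCL2L11, on chromosome 2, encodes BIM, which ERK phosphorylation marks for degradation. Its values were 64.7, 44.3 and 68.3 in the scrambled libraries and 89.0, 91.1 and 88.5 with DUSP6 siRNA. The spread was among the scrambled libraries, the second of which was lowest, and the DUSP6 siRNA libraries were nearly equal. The scrambled mean was 59.1 ± 13.0 and the DUSP6 siRNA mean 89.5 ± 1.37 (SD, n = 3), and the log2 fold change was 0.62 ± 0.15 (SE; limma adjusted p = 0.0101). Without the second scrambled library the log2 fold change was 0.42 and still passed (limma adjusted p = 0.00555). Exons of MIR4435-2HG overlap 10.8% of the BCL2L11 exons. The study's methods name only default settings for the counting, and whether reads there were counted for BCL2L11 was not checked.

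BMF moved against the other called BH3-only genes. BMF, on chromosome 15, encodes a BH3-only protein kept at the cytoskeleton until a cell loses its anchorage. Its values were 6.29, 7.20 and 6.37 in the scrambled libraries and 2.61, 4.33 and 2.39 with DUSP6 siRNA. The groups did not overlap, and the second DUSP6 siRNA library was again the one nearest the scrambled libraries. The log2 fold change was -0.92 ± 0.17 (SE; limma adjusted p = 0.00274). BIK, whose protein sits mainly at the endoplasmic reticulum, had values of 3.79, 4.52 and 6.62 in the scrambled and 4.65, 4.30 and 3.55 in the DUSP6 siRNA libraries. These overlapped, with a log2 fold change of -0.19 (95% interval -0.59 to 0.21; limma adjusted p = 0.408). The second DUSP6 siRNA library, nearest the scrambled group for PMAIP1, BBC3 and BMF, had the lowest DUSP6 value of all 6 libraries. For BCL2L11 the same library was the farthest from the scrambled group, and a relation to the DUSP6 value was not tested.

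The effectors were not called, and their fold changes had opposite signs. BAX, a mainly cytosolic protein that inserts into the membrane when activated, had values of 19.3, 22.6 and 26.8 in the scrambled libraries and 27.1, 28.3 and 27.7 with DUSP6 siRNA. The groups were separated by less than 1 unit, and the log2 fold change was 0.28 ± 0.12 (SE; limma adjusted p = 0.101). Without the third scrambled library, the highest of its group, it was 0.39 and passed (limma adjusted p = 0.0125), and without the first, the lowest, it was 0.16 (limma adjusted p = 0.256).

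BAK1, the effector that resides in the membrane, had values of 39.0, 31.4 and 45.3 in the scrambled libraries and 30.2, 29.5 and 29.7 with DUSP6 siRNA. The second scrambled library was close to the DUSP6 siRNA group. The log2 fold change was -0.35 ± 0.13 (SE; limma adjusted p = 0.0580). It passed without the second scrambled library (-0.48, limma adjusted p = 0.00767) and with edgeR on recovered reads (-0.37, edgeR adjusted p = 0.0478). Without scrambled replicate 3 it was -0.23 (limma adjusted p = 0.114). Exons of GGNBP1 overlap 4.11% of those of BAK1.

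**Figure D2:**
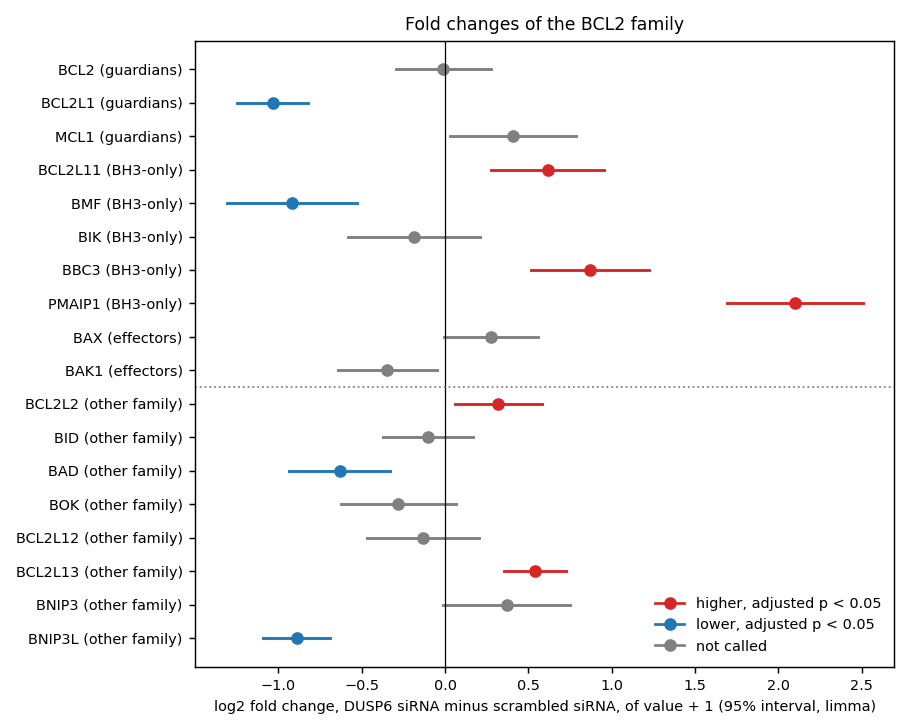
Log2 fold change (DUSP6 siRNA minus scrambled siRNA, of the normalized value + 1) with its 95% interval from limma for the 10 members, above the dotted line, and for the 8 other family genes tested, below it. Red and blue mark genes called higher and lower at adjusted p under 0.05, and grey marks genes not called: PMAIP1 lies farthest to the right at 2.10 and BCL2L1 farthest to the left at -1.03.

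To compare levels between genes, values were divided by the length of each gene's canonical GENCODE transcript. Per kilobase, the scrambled libraries had most MCL1 (46.9 to 77.8) and BCL2L1 (57.1 to 68.8), whose ranges overlapped, followed by BAX (24.3 to 33.7), BAK1 (14.5 to 20.9) and BCL2L11 (8.69 to 13.4). BIK (3.99 to 6.96), BMF (1.34 to 1.54) and BBC3 (1.11 to 1.69) came next, the last pair with overlapping ranges, and then PMAIP1 (0.656 to 0.812) and BCL2 (0.267 to 0.370). With DUSP6 siRNA, MCL1 (80.0 to 88.2 per kilobase) stood alone at the top. BAX (34.0 to 35.5) and BCL2L1 (29.2 to 30.7) followed, then BCL2L11 (17.4 to 17.9) and BAK1 (13.6 to 13.9). PMAIP1 (3.54 to 6.24 per kilobase) then overlapped BIK (3.74 to 4.89) and was above BBC3 (2.41 to 3.37), with BMF (0.510 to 0.923) and BCL2 (0.303 to 0.359) last. The place of BAX rests on a canonical transcript of 795 bases, while all its annotated exons cover 2587.

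The summed guardian level per kilobase was 116, 139 and 127 in the scrambled libraries and 115, 111 and 118 with DUSP6 siRNA, with the first scrambled library inside the DUSP6 siRNA range. Within that sum the composition shifted. BCL2L1 made up 59.3%, 44.0% and 45.0% of it in the scrambled libraries and 26.7%, 27.6% and 24.8% with DUSP6 siRNA. MCL1 made up 40.4%, 55.8% and 54.7% in the scrambled and 73.1%, 72.0% and 74.9% in the DUSP6 siRNA libraries, and BCL2 at most 0.323% in any library. Summed BH3-only levels per kilobase were 19.9, 17.3 and 24.0 in the scrambled libraries and 31.5, 29.3 and 31.2 with DUSP6 siRNA, without overlap. BCL2L11 supplied 50.1% to 63.8% of that sum in the scrambled and 55.4% to 61.1% in the DUSP6 siRNA libraries. All these sums and shares cover the chosen members only. Summed effector levels were 42.3, 42.9 and 54.6 per kilobase in the scrambled and 48.0, 49.2 and 48.6 in the DUSP6 siRNA libraries, with the DUSP6 siRNA values inside the scrambled range.

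The summed guardian level was 5.83, 8.04 and 5.29 times the summed BH3-only level in the scrambled libraries and 3.64, 3.79 and 3.77 times with DUSP6 siRNA. With all annotated exons in place of canonical transcripts these ratios were 4.49, 6.13 and 4.00 in the scrambled and 2.88, 3.00 and 3.00 in the DUSP6 siRNA libraries, and the groups again did not overlap. These sums describe RNA per length and were not tested, since the fold changes of their members were known when the sums were formed.

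**Figure D3:**
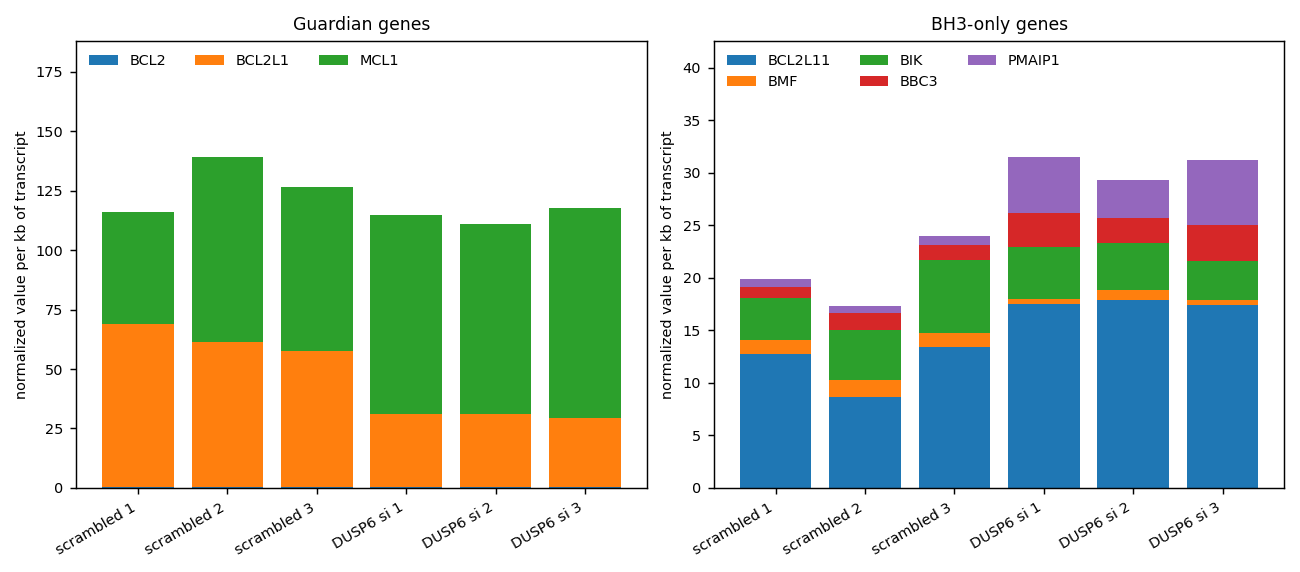
Normalized value per kilobase of canonical transcript (linear axes from 0), stacked by gene for the guardian (left) and BH3-only (right) members. There is 1 bar per library. The BCL2L1 part of the guardian bars is smaller with DUSP6 siRNA (24.8% to 27.6% against 44.0% to 59.3%), the BH3-only bars are taller (29.3 to 31.5 against 17.3 to 24.0), and BCL2 is too scarce to be seen.

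Inside each library, the ratio of a death-promoting gene to a guardian that its protein binds was also formed, for 5 chosen pairs. With 3 against 3 libraries the two-sided exact permutation test cannot go below 0.1, so no ratio could pass. BCL2L11 to BCL2L1 was 0.366, 0.281 and 0.465 in the scrambled libraries and 1.13, 1.15 and 1.18 with DUSP6 siRNA, a 3.18-fold higher ratio (exact permutation p = 0.1, 0.125 adjusted over the 5 ratios). In all scrambled libraries BCL2L11 reads were fewer than BCL2L1 reads, and in all DUSP6 siRNA libraries they were more numerous. Per kilobase of transcript, BCL2L1 stayed above BCL2L11 with DUSP6 siRNA (29.2 to 30.7 against 17.4 to 17.9). PMAIP1 to MCL1 was 4.97-fold higher, a smaller factor than that of PMAIP1 itself, running from 0.00405 to 0.00787 in the scrambled and from 0.0212 to 0.0340 in the DUSP6 siRNA libraries (exact permutation p = 0.1). With a pseudocount of 1 the log2 difference of this ratio was 1.69 in place of 2.31. BBC3 to BCL2L1 was 4.45-fold higher, from 0.0116 to 0.0198 in the scrambled and from 0.0564 to 0.0829 in the DUSP6 siRNA libraries (exact permutation p = 0.1).

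The 2 ratios with an effector differed in sign. BAX to BCL2 was 7.81, 12.3 and 10.5 in the scrambled libraries and 13.0, 11.4 and 12.6 with DUSP6 siRNA, with a higher mean but overlapping groups (1.23-fold, exact permutation p = 0.2). BAK1 to MCL1 was 0.211, 0.102 and 0.166 in the scrambled and 0.0911, 0.0934 and 0.0853 in the DUSP6 siRNA libraries, lower in all the latter (0.588-fold, exact permutation p = 0.1). The ratios share members, BCL2L1 and MCL1 being the denominator of a pair of ratios each, and are not independent of the fold changes above. The BH3-only genes on top are those called higher, and no ratio was formed for BMF or BIK. The rise of these ratios thus restates the fold changes and says nothing on BH3-only genes as a group.

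**Figure D4:**
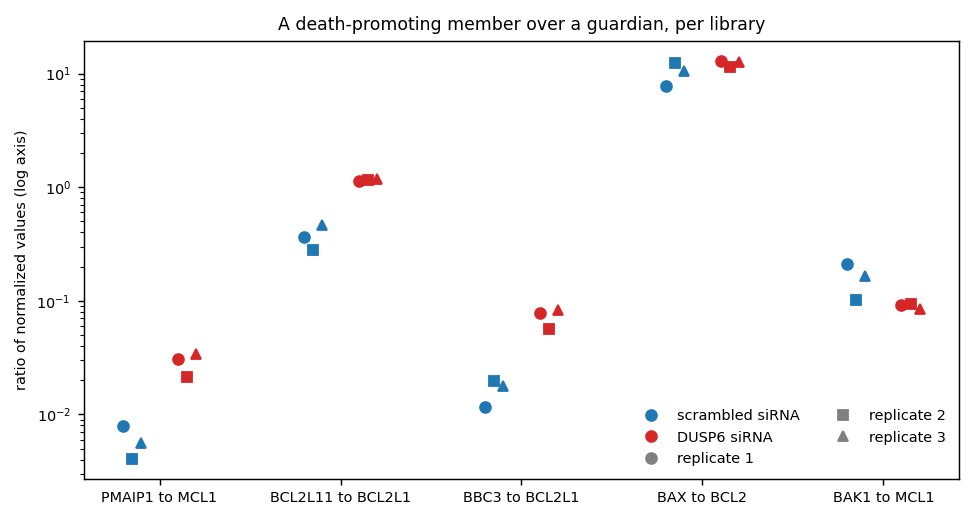
Ratio of the normalized values of a BH3-only or effector gene to a guardian (log axis) in each scrambled (blue) and DUSP6 siRNA (red) library for the 5 pairs. The 3 ratios with a BH3-only gene on top, formed for members called higher and not for BMF or BIK, are higher in every DUSP6 siRNA library. BAK1 to MCL1 is lower in every DUSP6 siRNA library, and BAX to BCL2 overlaps.

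Of 13 further BCL2 family genes 8 passed the filter, 2 being called higher, 2 lower and 4 not called, with a median log2 fold change of -0.12. The shares over all genes tested were 19.7% higher and 24.7% lower. BCL2A1, BCL2L10, HRK, BCL2L14 and BCL2L15 were under the filter. BNIP3L, a mitophagy receptor, had values of 68.0, 76.8 and 73.0 in the scrambled libraries and 40.0, 38.5 and 37.4 with DUSP6 siRNA, well apart (log2 fold change -0.89, limma adjusted p = 1.11e-04). BCL2L13, also a mitophagy receptor, had 93.4, 96.1 and 103 against 140, 140 and 145 (0.54, limma adjusted p = 0.00101). BAD, the BH3-only gene whose protein survival kinases phosphorylate, had 6.77, 6.99 and 6.19 against 4.63, 4.11 and 3.17 (-0.63, limma adjusted p = 0.00515), with GPR137 over 23.7% of its exons. BAD thus lay with BMF as a BH3-only gene that was lower. BCL2L2, the guardian BCL-W, stood at the threshold (0.32, limma adjusted p = 0.04997) and lost its call in 11 of 14 other settings. BID (-0.10), which caspase-8 activates, BOK (-0.28), an effector relative, BCL2L12 (-0.13), with IRF3 over 25.9% of its exons, and BNIP3 (0.37) were not called. BNIP3 was called higher without scrambled replicate 3 (0.49, limma adjusted p = 0.0397) and after quantile normalization (limma adjusted p = 0.0494), and was 0.15 without scrambled replicate 2.

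Of 12 genes that act after the membrane opens or lie in it, 4 were higher, 3 lower and 5 not called (median log2 fold change 0.14). Over all genes tested, 19.7% were called higher and 24.7% lower. Among the 4 higher genes, ENDOG had a mean of 0.673 in the scrambled and 1.36 in the DUSP6 siRNA libraries. ENDOG thus passed the filter only through the group where it was higher, and its call is no support for the count. VDAC1, the main channel of the outer membrane, had 354, 284 and 328 in the scrambled libraries and 170, 169 and 177 with DUSP6 siRNA (-0.89, limma adjusted p = 1.83e-04). AIFM1, a flavoprotein released with cytochrome c, was lower (-0.74), as was DIABLO (-0.71), whose protein blocks the inhibitors of apoptosis and whose exons are overlapped by B3GNT4 over 13.9%. On the caspase side, CASP9, the initiator caspase of the apoptosome, was higher (0.54, limma adjusted p = 0.00594). The apoptosome scaffold APAF1 had a log2 fold change of 0.30 and did not pass (limma adjusted p = 0.0726), though it did without scrambled replicate 2 (0.37, limma adjusted p = 0.0388), and was 0.20 without scrambled replicate 3. Cytochrome c (CYCS), a gene with processed pseudogenes, overlapped between groups, at 174, 125 and 174 in the scrambled and 144, 141 and 155 in the DUSP6 siRNA libraries (-0.09). It was called lower without scrambled replicate 2 (-0.25, limma adjusted p = 0.0455).

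Of the 7 inhibitors of apoptosis, which block caspases or the signals to them, 6 passed the filter, 4 being higher and 1 lower (median log2 fold change 0.37). The background was 19.7% higher and 24.7% lower over all genes tested. BIRC2 (cIAP1) was at 81.2, 87.1 and 87.4 in the scrambled libraries and 123, 145 and 136 with DUSP6 siRNA (0.65, limma adjusted p = 6.44e-04). NAIP (0.53, limma adjusted p = 0.0178) and XIAP (0.39, limma adjusted p = 0.0145), the direct caspase inhibitor, were higher too. NAIP lost its call without replicate 1 of either group or DUSP6 siRNA replicate 3 (limma adjusted p up to 0.0696), and XIAP without DUSP6 siRNA replicate 2 or 3 (up to 0.0657). BIRC5 (survivin), also a mitotic gene, was lower (-0.44, limma adjusted p = 0.00551).

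Of 11 transcription factors known to control BH3-only genes, 2 were higher, 5 lower and 4 not called (median log2 fold change -0.47). Beside these counts, 19.7% of all genes tested were higher and 24.7% lower. IRF1, an interferon-induced factor known to act on BBC3, was at 7.44, 7.07 and 7.52 in the scrambled libraries and 39.3, 32.5 and 44.4 with DUSP6 siRNA (2.24, limma adjusted p = 5.41e-06), and IRF1-AS1 covers 22.9% of its exons. Its lowest DUSP6 siRNA value was in the second library, as for PMAIP1 and BBC3, but also for DDIT3 and E2F1 of this list. A link between these genes was not tested. E2F1 (-1.32), TP73 (-0.80) and FOXO4 (-1.12), factors known to activate BH3-only genes, were lower.

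Of 13 genes that set the stability or place of MCL1 and BIM proteins, 1 was higher, 4 lower and 8 not called (median log2 fold change -0.15). Calls over all genes tested were 19.7% higher and 24.7% lower. MAPK3 (ERK1), a kinase of BIM, was at 151, 158 and 149 in the scrambled libraries and 92.1, 94.1 and 84.6 with DUSP6 siRNA (-0.75, limma adjusted p = 1.95e-04). The dynein light chains, which tether BIM and BMF, had opposite signs: DYNLL2, the partner of BMF, was higher (0.64, limma adjusted p = 5.63e-04) and DYNLL1, the partner of BIM, lower (-0.40, limma adjusted p = 0.00382). DYNLL1 was no longer called after quantile normalization (limma adjusted p = 0.0674). UBE2C, a ubiquitin-conjugating enzyme of mitosis, was lower (-0.61).

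**Figure D5:**
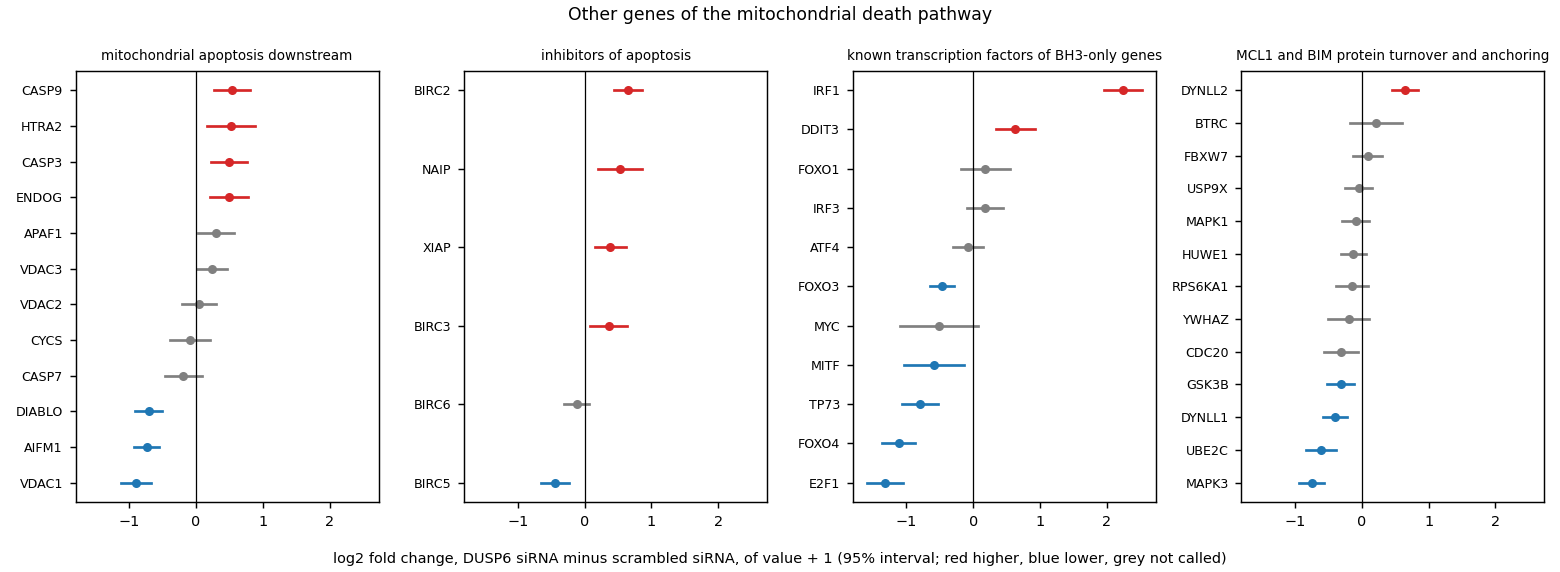
Log2 fold change (DUSP6 siRNA minus scrambled siRNA, of the normalized value + 1) with its 95% interval from limma for the tested genes of 4 lists, sorted within each list. Red genes were called higher, blue lower and grey not called, and IRF1 at 2.24 and E2F1 at -1.32 lie farthest out.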

How the data were processed

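RNA of MDA-MB-453 cells was sequenced from stranded mRNA libraries, 3 per group. Per the study's methods, reads were aligned to hg38 and assigned to RefSeq genes with Rsubread at default settings, and the submitters' processing notes name edgeR. The deposited table holds a read signal per gene that the authors scaled for depth. Dividing by each library's step gave whole reads for 100% of values (within 0.01), with scaling equal to edgeR TMM. Genes with a mean of at least 1 were tested on log2(value + 1) with limma 3.58.1 (eBayes with trend, R 4.3.3), Benjamini-Hochberg adjustment and calls at adjusted p under 0.05. edgeR 4.0.16 quasi-likelihood tests on recovered reads were an alternative. The code was tested on simulated data. Promoters came from RefSeq, lengths and exon overlaps from GENCODE v44.

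The members and lists were chosen with earlier results of these data known. Named genes were the 10 members, DUSP6, every tested gene of the wider family, up to 4 called genes with the largest fold change per further list, and APAF1, CYCS and CASP9. Marker and overlapping genes are named as checks, and 1 gene of the transcription factor list is not reported here. Lengths over all annotated exons were an alternative chosen after seeing the data.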

Additional observations from a re-analysis of the deposited data

How the results depend on the processing

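Of 37 named genes 26 were called, and 22 of these kept call and direction in each of 8 settings with all libraries and 6 without 1 library that tested them. The exceptions were BCL2L2, NAIP, XIAP and DYNLL1. Requiring a mean value of at least 10 left out BBC3, BCL2, BIK, BMF and PMAIP1, so 1 member was called higher and 1 lower, and 1639 genes in all were called higher. Without 1 library, 1574 (without the second DUSP6 siRNA library) to 3183 genes were called higher. edgeR on recovered reads called 2459 genes higher and 3245 lower. The sign of 3 uncalled genes turned without 1 library, where the log2 fold change ranged from -0.11 to 0.048 for BCL2, from -0.33 to 0.00106 for BIK and from -0.28 to 0.0084 for BCL2L12. CYCS turned to 0.073 after quantile normalization. With a pseudocount of 1, PMAIP1 to MCL1 differed by 1.69 on the log2 scale in place of 2.31. Same-numbered libraries showed little shared deviation over the tested genes (correlations from -0.0764 to 0.0868, and 2 of 6 libraries correlating best with their own number). Whether they were paired cannot be settled from these correlations. With the replicate block 2495 genes were called higher and 3096 lower, and 4 members higher, MCL1 being added (limma adjusted p = 0.0369). Depth limits the scarce members most: PMAIP1 rested on as few as 65 reads in a library and BCL2 on 96.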
